A study of Mus musculus with 4 samples.

Results

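BATF-IRF4 sites without a JunB peak are places in regulatory T (Treg) cells where chromatin immunoprecipitation followed by sequencing (ChIP-seq) listed a peak for the transcription factors BATF and IRF4 and none for JunB. They were chosen from the peak lists alone, as peaks of the Junb-sufficient IRF4 list that overlapped a BATF peak by at least 1 bp and overlapped no JunB peak. This gave 3059 sites of the 31093 IRF4 peaks listed. In Junb-deficient cells, an IRF4 peak was again listed over 2269 of the sites, called kept here, and none over 790, called missing. The other IRF4 peaks comprised 8960 triple sites with both a BATF and a JunB peak, 3558 with a JunB peak and no BATF peak, and 15516 with neither, called IRF4 alone.

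Splenic CD4+CD25+ Treg cells of C57BL/6 mice were activated with anti-CD3, anti-CD28 and IL-2 for 60 h. There was 1 library per condition and 4 in all, namely JunB, BATF and IRF4 from Junb-sufficient cells and IRF4 from Junb-deficient cells. The sample labels give the genotypes as Foxp3cre JUNB+/+ and Foxp3cre JUNBFl/Fl, which deletes Junb in cells that express Foxp3, whereas the study's description of the ChIP-seq data it displays names Junb fl/fl and Cd4Cre Junb fl/fl mice, in which T cells in general lose the gene. Which pair was used cannot be told apart from the peak lists. For the Junb-sufficient BATF and IRF4 libraries the antibody field contradicts the titles. The titles were followed, because the names of the deposited lists match them and because the study counts more peaks shared by IRF4 and JunB than the list titled BATF holds in all. Values with both exchanged are given where they move a result. The recorded totals were 21127029 to 27399986 tags (aligned reads), of which 4.27% (JunB), 5.03% (BATF), 12.8% (IRF4, Junb-sufficient) and 11.1% (IRF4, Junb-deficient) lay in peaks. Neither JunB nor BATF was profiled in Junb-deficient cells among these libraries.

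BATF and JunB belong to the AP-1 family, whose members bind DNA as pairs. BATF has no activation domain of its own and needs a Jun partner, JunB or a relative such as JunD or c-Jun. IRF4 binds weakly by itself, and is recruited with BATF-Jun pairs to AP-1-IRF composite elements (AICE), with ETS factors to ETS-IRF composite elements (EICE), and at high levels to interferon-stimulated response elements (ISRE). In Treg cells BATF and IRF4 are known for promoting the effector state.

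The reference sequences of the highest-listed kept sites with AICE, with AP-1 alone, with ISRE or EICE alone and with none of these motifs, and of the highest-listed missing sites of the first 3 of these classes, show the kinds of sequence found. They were taken from the mm9 genome (plus strand) from 100 bp before to 100 bp after the centre of the IRF4 peak, and capitals mark the motif of the class, with no capitals where neither AICE, AP-1, ISRE nor EICE was found. The letters searched on both strands were TGANTCA for AP-1, GAAATGANTCA or TTTCNNNNTGANTCA for AICE (each holds an AP-1 motif), GAAANNGAAA for ISRE and GGAANNGAAA for EICE. The 4 kept sites were chr16:45124904-45125104 in an intron of Ccdc80, nearest to the TSS (transcription start site) of Slc35a5, chr10:110651259-110651459 in an intron of Osbpl8, chr5:116162161-116162361 in an intron of Ccdc64, and chr10:117355636-117355836 in intergenic sequence nearest to Rap1b.
Slc35a5 site, AICE, kept: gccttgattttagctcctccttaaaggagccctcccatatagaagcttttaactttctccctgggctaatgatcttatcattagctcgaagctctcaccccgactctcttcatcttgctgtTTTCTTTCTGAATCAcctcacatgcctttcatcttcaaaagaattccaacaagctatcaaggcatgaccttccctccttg
Osbpl8 site, AP-1, kept: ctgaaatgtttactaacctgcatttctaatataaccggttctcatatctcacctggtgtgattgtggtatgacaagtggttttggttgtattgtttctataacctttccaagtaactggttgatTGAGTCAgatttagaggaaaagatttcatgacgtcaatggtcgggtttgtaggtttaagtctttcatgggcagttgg
Ccdc64 site, ISRE, kept: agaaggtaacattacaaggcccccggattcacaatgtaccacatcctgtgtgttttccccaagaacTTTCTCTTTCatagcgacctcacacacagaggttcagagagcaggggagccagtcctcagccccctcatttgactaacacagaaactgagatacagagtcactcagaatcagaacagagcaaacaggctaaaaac
Rap1b site, none, kept: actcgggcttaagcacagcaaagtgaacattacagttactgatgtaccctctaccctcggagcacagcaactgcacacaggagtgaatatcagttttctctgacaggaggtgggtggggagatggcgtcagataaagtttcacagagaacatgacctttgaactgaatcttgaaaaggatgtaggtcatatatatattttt

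The 3 missing sites shown were chrX:139282692-139282892, chr3:83872903-83873103 and chr8:129356570-129356770 in intergenic sequence nearest to Tmem164, D930015E06Rik and Tomm20.
Tmem164 site, AICE, missing: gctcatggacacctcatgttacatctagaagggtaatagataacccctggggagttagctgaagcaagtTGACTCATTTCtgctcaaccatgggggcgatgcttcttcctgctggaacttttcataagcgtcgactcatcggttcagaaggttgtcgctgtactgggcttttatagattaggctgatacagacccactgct
D930015E06Rik site, AP-1, missing: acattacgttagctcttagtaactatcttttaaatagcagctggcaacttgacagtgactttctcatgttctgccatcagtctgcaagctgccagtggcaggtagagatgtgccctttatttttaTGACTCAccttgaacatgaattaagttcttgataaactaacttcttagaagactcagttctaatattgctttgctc
Tomm20 site, EICE, missing: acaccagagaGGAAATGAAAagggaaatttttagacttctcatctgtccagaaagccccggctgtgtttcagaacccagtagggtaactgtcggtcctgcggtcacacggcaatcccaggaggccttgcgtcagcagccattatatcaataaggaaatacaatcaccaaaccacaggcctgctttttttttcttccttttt

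The Slc35a5 site holds the spaced form of AICE and the Tmem164 site the form with both half-elements side by side, read on the minus strand. Of the kept sites, these stood at places 245 (Slc35a5), 129 (Osbpl8), 839 (Ccdc64) and 295 (Rap1b) of the 31093 IRF4 peaks, and at places 697, 336, 372 and 752 of the 29033 peaks listed in Junb-deficient cells. The missing sites stood lower, at places 7120 (Tmem164), 2477 (D930015E06Rik) and 2825 (Tomm20). The highest-listed missing site of all was the D930015E06Rik site, so that none of the sites in the first 7.97% of the list was missing.

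The place in the list is the only measure of peak strength here, because the deposited score is 1 for every peak. The sites lay in the middle of the Junb-sufficient IRF4 list, with a median place at 42.4% of its length (5th to 95th percentile 13.96 to 86.1%), while the triple sites had a median of 16.9%. In the BATF list the contrast was wider, with medians of 75.02% for the sites and 35.4% for the triple sites. These lists were used to choose the sites, so the values are a description. The BATF and IRF4 peak centres were close, at a median distance of 31 bp, and within 100 bp at 2512 of 3059 sites (82.1%), against a median of 22 bp and 90.7% of the triple sites.

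The nearest JunB peak was usually far from the sites. Its centre lay at a median of 19.4 kb, and 199 sites (6.51%) had one within 1 kb. Seen from the BATF list, 3970 of 13570 peaks had no JunB peak, and 3057 of these (77.0%) overlapped an IRF4 peak. The BATF peak at 88 sites did overlap a JunB peak that the IRF4 peak did not reach. JunB peaks were called 151 bp wide against 613 bp for BATF and IRF4, and a JunB signal below the calling threshold would not be listed, so that the absence of a JunB peak does not show absence of JunB. At the rule's edge, of the 106 sites that a JunB peak missed by less than 100 bp, 86 were kept (81.1%), and of the 138 triple sites with an overlap of less than 100 bp, 116 were kept (84.1%).

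Most of the sites kept an IRF4 peak in Junb-deficient cells. An overlapping peak was listed at 2269 of 3059 (74.2%, exact binomial 95% interval 72.6 to 75.7%), compared with 65.0% of all Junb-sufficient IRF4 peaks, 7492 of 8960 triple sites (83.6%, 82.8 to 84.4%) and 8410 of 15516 IRF4-alone peaks (54.2%, 53.4 to 55.0%). The Junb-deficient library held 17.9 M tags (M for mega) after the limit of 1 tag per bp and the Junb-sufficient IRF4 library 17.3 M. With 1 library per genotype no test between genotypes was possible, and all intervals cover counting error over peaks, not variation between mice or preparations.

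Because peaks low in the list were kept less often, the sites were also compared at like place, within 20 equal parts of the Junb-sufficient list, by a Mantel-Haenszel odds ratio. Unadjusted, the difference in share kept, sites minus triple sites, was -9.44 percentage points (95% interval -11.2 to -7.73), but at like place the odds of being kept were higher in the sites (odds ratio 1.52, 95% interval 1.35 to 1.70). In part 2 of 10 equal parts of the list 266 of 278 sites (95.7%) and 2000 of 2237 triple sites (89.4%) were kept, and in part 5 372 of 494 (75.3%) and 365 of 560 (65.2%). The share was higher in the sites in 8 of the 10 parts, with non-overlapping intervals in 4, and lower in parts 1 and 10.

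This comparison with the triple sites depended on the yardstick and on the labels. With BATF and IRF4 exchanged in Junb-sufficient cells, as the antibody field has it, the odds ratio was 1.13 (1.01 to 1.26). With strata of the place in the BATF list in place of the IRF4 list the odds ratio was 1.12 (0.999 to 1.25), with strata of both lists 1.46 (1.29 to 1.64), and with sharing restricted to peak centres within 100 bp 1.06 (0.955 to 1.18). At like place the sites were also kept more often than JunB-IRF4 sites without BATF (odds ratio 2.07, 1.86 to 2.31) and IRF4-alone peaks (1.22, 1.11 to 1.34). Within sites that held an AP-1 motif the odds ratio against triple sites was 1.25 (1.05 to 1.48), within those without one 1.41 (1.20 to 1.66), and outside promoters 1.40 (1.24 to 1.58).

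**Figure D1:**
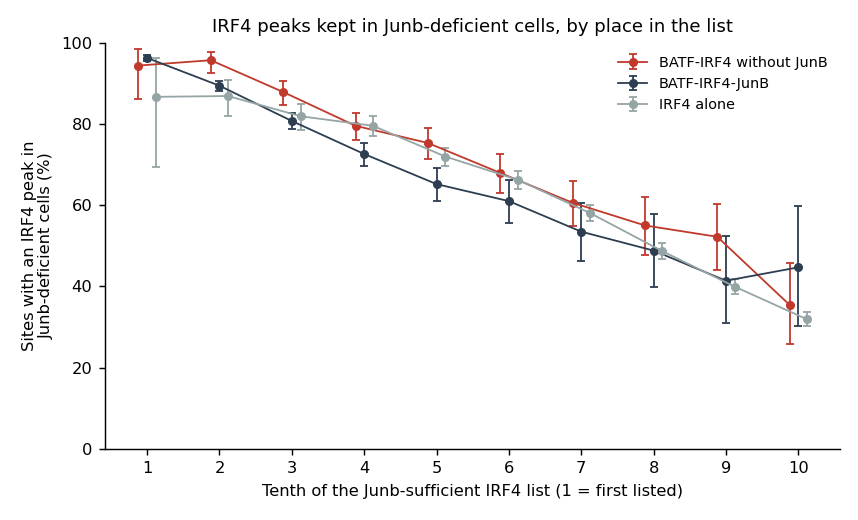
Share of Junb-sufficient IRF4 peaks with an overlapping IRF4 peak in Junb-deficient cells (y axis, %) in each of 10 equal parts of the Junb-sufficient list (x axis, 1 is first listed), for BATF-IRF4 sites without JunB, triple sites (BATF-IRF4-JunB) and IRF4 alone, with exact binomial 95% intervals as bars. The share is lower in part 10 than in part 1 in all 3 groups, with 35.4% and 94.4% for the sites without JunB, which lie above the triple sites in 8 of the 10 parts.

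Kept sites also differed from triple sites in where they stood in the Junb-deficient list. Among the 2269 kept sites, 1147 (50.6%) stood higher, as a share of list length, in Junb-deficient than in Junb-sufficient cells, against 2671 of 7492 kept triple sites (35.7%), and at like place the odds ratio was 1.36 (1.22 to 1.52). Against IRF4-alone peaks it was 0.923 (0.834 to 1.02) and against JunB-IRF4 sites without BATF 1.04 (0.918 to 1.17), neither of which left out 1. In part 2 of 5 equal parts of the list the median shift was 2.45 percentage points down the list for 881 kept sites and 6.71 points for 1925 kept triple sites. By the median the sites also moved less far down, or further up, than triple sites in parts 1, 3 and 4. In part 5 the order was reversed, with medians of -15.4 points (up the list) for 117 kept sites and -19.0 points for 57 kept triple sites. The shift ranged widely, with 25th and 75th percentiles of -11.3 and 14.1 points over all kept sites.

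**Figure D2:**
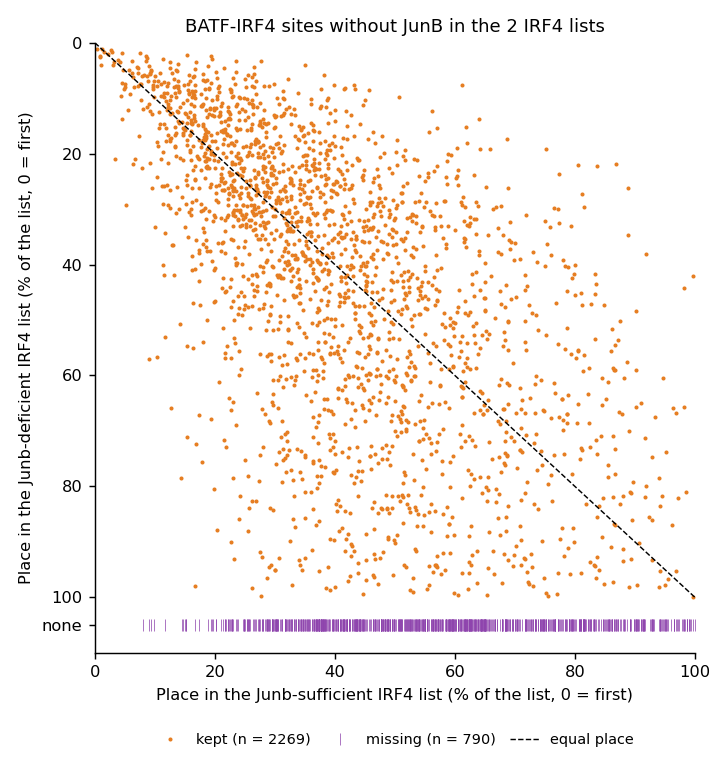
Place of each BATF-IRF4 site without JunB in the Junb-sufficient IRF4 list (x axis, % of list length, 0 is first) against the place of its partner in the Junb-deficient list (y axis, same unit, first at the top), with the 790 missing sites as ticks at the bottom. Kept sites scatter on both sides of the dashed line of equal place, and missing sites begin at 7.97% of the list.

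AP-1 motifs were less frequent at the sites than at triple sites, and less frequent at kept than at missing sites. An AP-1 motif lay within 100 bp of the IRF4 centre at 991 sites (32.4%, 30.7 to 34.1%), compared with 48.6% of triple sites, 21.1% of IRF4-alone peaks and 32.3% of all IRF4 peaks. In windows of the same length 5 kb downstream of the sites, clear of any peak, the share was 5.46%. At like place the odds ratio was 0.478 (0.433 to 0.527) against triple sites and 2.09 (1.90 to 2.30) against IRF4 alone. Among the missing sites 376 of 790 (47.6%) held the motif and among the kept sites 615 of 2269 (27.1%), an odds ratio of kept against missing of 0.424 (0.355 to 0.507) at like place.

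Where the sites had an AP-1 motif, it mostly lay near the peak centre. Within 200 bp of the centre 1153 sites held one, at a median of 28 bp from the IRF4 centre and within 50 bp in 70.1%, against 22 bp and 77.3% in triple sites. Of the missing sites 12.2% had a match in the 20 bp bin just before the centre, as did 5.11% of the kept sites, and in the bin just after it the shares were 10.5% and 7.23%. In the outermost bins the shares were 0.506 to 1.14% in both.

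**Figure D3:**
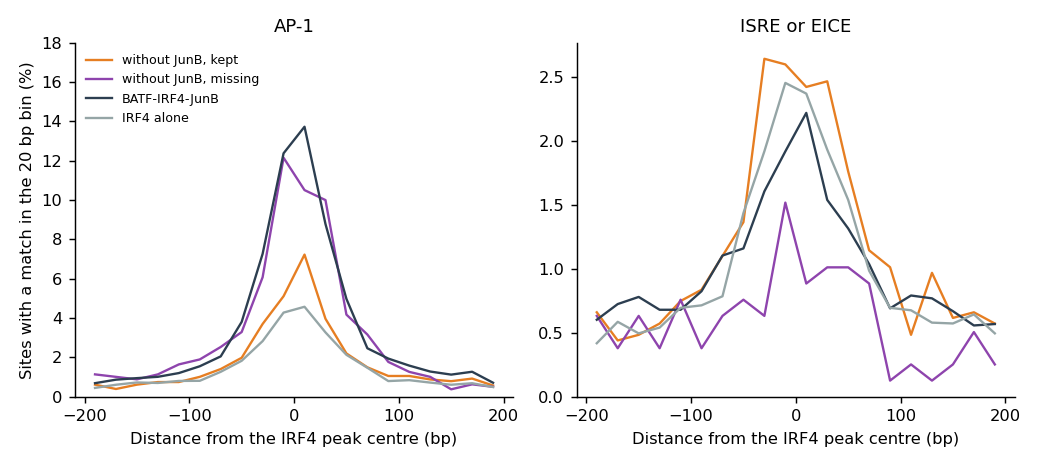
Share of sites with a motif match (y axis, %, separate scales) in each 20 bp bin of distance from the IRF4 peak centre (x axis, bp), for AP-1 (left) and ISRE or EICE (right). Both motifs peak at the centre. AP-1 is higher at missing than at kept sites without JunB, and ISRE or EICE higher at kept ones.

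The composite element AICE, at which BATF-Jun pairs and IRF4 bind together, was uncommon at the sites. It was found at 109 (3.56%, 2.93 to 4.28%), at 5.35% of triple sites, 1.44% of IRF4-alone peaks, 2.86% of all IRF4 peaks and 0.168% of the downstream windows. The odds ratio at like place was 0.701 (0.547 to 0.898) against triple sites, but the interval took in 1 in 3 of the alternatives run. Kept sites held it in 2.997% and missing sites in 5.19% (odds ratio 0.651, 0.427 to 0.992), and outside promoters this interval took in 1 (0.709, 0.459 to 1.09).

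ISRE and EICE, the elements at which IRF factors bind without an AP-1 pair, showed the opposite distribution from AP-1. Either was present at 404 sites (13.2%, 12.03 to 14.5%), against 12.3% of triple sites, 13.1% of IRF4-alone peaks, 12.8% of all IRF4 peaks and 4.12% of the downstream windows. The share was 15.2% in kept and 7.34% in missing sites, with an odds ratio of 2.10 (1.55 to 2.86) at like place. The difference was seen for ISRE, at 12.03% of kept and 4.43% of missing sites (odds ratio 2.9996, 2.03 to 4.43). EICE was at 3.70% and 3.16% (0.956, 0.597 to 1.53). Against triple sites the odds ratio of ISRE or EICE was 1.26 (1.10 to 1.45), and its interval took in 1 in 5 alternatives, among them the comparison without strata (1.09, 0.962 to 1.23). Against IRF4 alone the odds ratio at like place was 0.812 (0.717 to 0.920), so the motif was less frequent at the sites. Against JunB-IRF4 sites without BATF it was 1.07 (0.926 to 1.24).

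Other motifs followed kept and missing sites to differing degrees. The kappaB motif of NF-kappaB factors (GGGNNTTTCC or GGGNNNTTCC) was at 129 of 2269 kept sites (5.69%) and 16 of 790 missing sites (2.03%), an odds ratio of 2.64 (1.53 to 4.55), and 2.99 (1.66 to 5.39) outside promoters. The ETS motif CCGGAA was at 5.29% and 3.16% (1.65, 1.05 to 2.59), which fell to 1.08 (0.600 to 1.93) outside promoters. The Runx motif TGTGGT was at 23.4% and 20.3% (1.11, 0.903 to 1.38), the E-box CACGTG at 4.58% and 3.16% (1.38, 0.859 to 2.23) and the cyclic AMP response element TGACGTCA at 0.573% and 0.633% (0.903, 0.292 to 2.79). In all IRF4 peaks these motifs were at 4.49% (kappaB), 6.28% (ETS), 22.9% (Runx), 3.77% (E-box) and 0.827% (cyclic AMP response element). Against triple sites at like place, ETS (odds ratio 2.38, 1.83 to 3.10), E-box (1.81, 1.40 to 2.34) and kappaB (1.42, 1.13 to 1.78) were more frequent at the sites, and outside promoters the ETS value was 1.64 (1.17 to 2.29). Compared with IRF4 alone, ETS (0.442, 0.368 to 0.532) and kappaB (0.7998, 0.657 to 0.974) were less frequent at the sites. The E-box interval took in 1 (0.917, 0.744 to 1.13). Compared with JunB-IRF4 sites without BATF, the intervals of ETS (0.909, 0.724 to 1.14) and kappaB (1.19, 0.938 to 1.52) took in 1. E-box was more frequent at the sites there (1.32, 1.02 to 1.71). The higher frequency of ETS and kappaB was thus relative to triple sites.

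**Figure D4:**
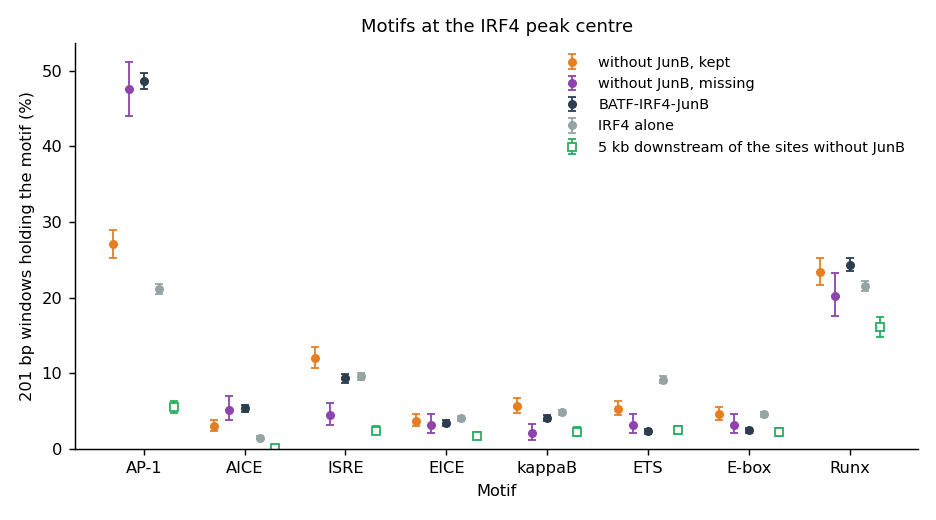
Share of windows, 100 bp to each side of the IRF4 centre, that hold each motif (y axis, %) for kept and missing BATF-IRF4 sites without JunB, triple sites, IRF4 alone, and windows 5 kb downstream of the sites without JunB (squares), with exact binomial 95% intervals. The AP-1 share is 47.6% at missing sites and 48.6% at triple sites, while kept sites stand at 27.1%.

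For AP-1, ISRE or EICE, kappaB and ETS the same split between kept and missing was present in triple sites. There the odds ratio of kept against missing was 0.476 (0.421 to 0.539) for AP-1, 1.962 (1.57 to 2.45) for ISRE or EICE and 2.53 (1.66 to 3.86) for kappaB. The ratio of the sites' odds ratio to that of the triple sites was 0.891 (0.717 to 1.11) for AP-1, 1.07 (0.735 to 1.57) for ISRE or EICE and 1.04 (0.524 to 2.08) for kappaB, so that none of these differed beyond counting error, while differences within those intervals were not detectable. For ETS the odds ratio in triple sites was 1.77 (1.08 to 2.90), and the ratio was 0.932 (0.478 to 1.82), which took in 1. For AICE the odds ratio in triple sites was 0.929 (0.701 to 1.23), which took in 1 unlike that of the sites. For Runx it was 1.36 (1.17 to 1.58), which left out 1 unlike that of the sites. The ratios for AICE and Runx, sites over triple sites, were 0.701 (0.422 to 1.16) and 0.820 (0.633 to 1.06), both with intervals that took in 1. Missing sites without JunB still held AP-1 less often than missing triple sites (47.6% against 61.9%, odds ratio 0.591, 0.487 to 0.717).

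Sorted by motif class, the share kept ranged from 60.5% to 88.6%. Of 795 sites with AP-1 and neither AICE, ISRE nor EICE, 481 were kept (60.5%, 57.0 to 63.9%). Of 109 AICE sites 68 were kept (62.4%, 52.6 to 71.5%), of 87 with AP-1 and ISRE or EICE 66 (75.9%, 65.5 to 84.4%), of 1761 with none of these motifs 1382 (78.5%, 76.5 to 80.4%) and of 307 with ISRE or EICE and no AP-1 motif 272 (88.6%, 84.5 to 91.9%). The median place of the classes in the Junb-sufficient list was 44.6%, 48.1%, 42.4%, 41.8% and 37.4% in the same order. The corresponding triple sites were kept in 77.9%, 84.8%, 83.5%, 86.8% and 93.8%, at median places of 13.9 to 17.5%.

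**Figure D5:**
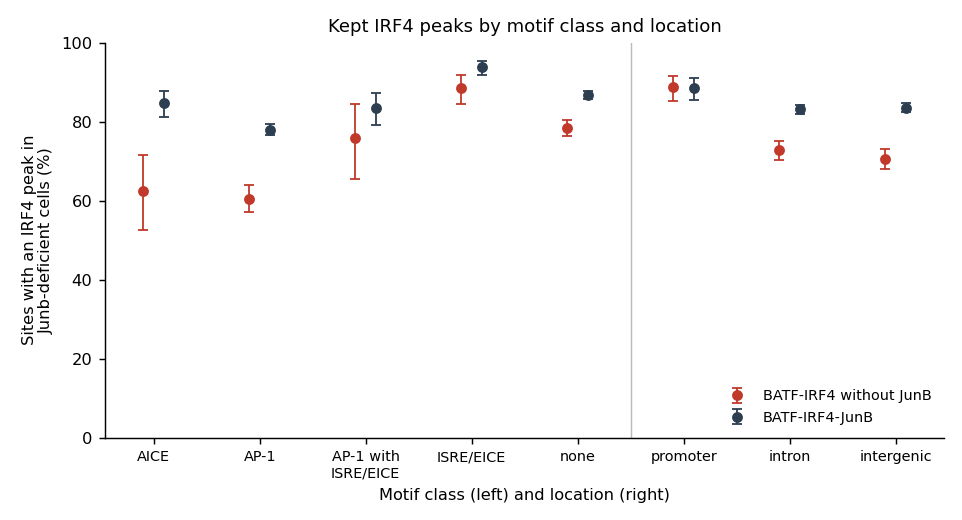
Share of sites with an IRF4 peak in Junb-deficient cells (y axis, %) by motif class and by location (x axis), for BATF-IRF4 sites without JunB and triple sites, with exact binomial 95% intervals and not adjusted for place. Among sites without JunB, AP-1 and AICE sites are kept least (60.5% and 62.4%), and ISRE or EICE sites and promoters most (88.6% and 88.7%).

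More of the sites lay at promoters than of the triple sites. The centre was within 1 kb of a protein-coding TSS at 397 sites (13.0%, 11.8 to 14.2%), in an intron at 1330 (43.5%), in an exon at 71 and between genes at 1261 (41.2%). Promoters made up 5.75% of triple sites and 24.7% of IRF4-alone peaks, with odds ratios at like place of 2.60 (2.21 to 3.07) and 0.384 (0.341 to 0.433). They made up 12.3% of JunB-IRF4 sites without BATF, with an odds ratio of 1.02 (0.880 to 1.18), and 16.7% of all IRF4 peaks. The higher share was thus relative to triple sites and not particular to the sites. Kept sites were at promoters in 15.5% and missing sites in 5.70% (odds ratio 2.92, 2.10 to 4.06). In triple sites the odds ratio was 1.55 (1.16 to 2.07), a ratio of 1.88 (1.22 to 2.92), but this difference did not hold throughout. With promoters reaching to 2.5 kb the odds ratios were 1.56 in the sites and 1.17 in triple sites (ratio 1.33, 0.975 to 1.80), and with sharing by centres within 100 bp 1.52 and 1.17 (ratio 1.299, 0.885 to 1.91). With BATF and IRF4 exchanged the ratio was 1.46 (0.956 to 2.22).

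At promoters the motif content of the sites was another than in introns. AP-1 was at 79 of 397 (19.9%) and ETS at 75 (18.9%), against 34.5% and 2.03% of the intronic sites. Promoter peaks with JunB and no BATF held AP-1 in 20.5% and ETS, counted separately, in 20.5%. The shares were 40.6% and 7.77% in promoter triple sites, and 12.5% and 23.6% in all IRF4 promoter peaks. Of the promoter sites 352 were kept (88.7%, 85.1 to 91.6%), close to the 456 of 515 promoter triple sites (88.5%, 85.5 to 91.2%). The median GC content of the windows was 43.3% at the sites, 43.8% at kept, 41.8% at missing and 41.8% at triple sites. The share kept was 79.4% (73.1 to 84.8%) within 1 kb of a JunB centre and 72.0% (68.5 to 75.4%) beyond 50 kb. These separate intervals overlap, but the difference itself was not tested. Beyond 50 kb the median place was also lower (49.99% against 29.4% of the list).

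Among the 10 highest-listed kept sites and, taken separately, the 10 highest-listed missing sites, several lay at genes known in T cells. A kept site 82.2 kb from the TSS of Irf4 itself, in an intron of the neighbouring Exoc2, stood at place 453 and at place 512 in Junb-deficient cells. A kept site 43.5 kb from S1pr1, the receptor that directs lymphocyte exit from lymphoid organs, stood at 681 and 597. The site nearest to Xcl1, a chemokine gene, stood at 919 and 1156, that nearest to Timd2 at 383 and 348, that nearest to Rap1b, a small GTPase, at 295 and 752, and the Usp32 and Alpk2 sites at 913 and 482 and at 311 and 1168. A JunB peak centre lay within 1 kb of 6 of these 10 kept sites (Osbpl8, Slc35a5, Alpk2, Timd2, Irf4 and Xcl1, at 394 to 898 bp), compared with 6.51% of all the sites, so these lay near the rule's edge. At the Timd2 and Xcl1 sites the BATF centre lay 461 and 489 bp from the IRF4 centre and the nearest JunB centre 460 and 488 bp. There the BATF peak may itself coincide with a JunB peak. Whether the Timd2 and Xcl1 sites are among the 88 sites whose BATF peak overlapped a JunB peak is not given here. The JunB centre nearest to the Usp32 site was 123 kb away.

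The highest missing sites included the Ezr promoter (place 4748, AP-1, 19 bp from the TSS), a site 88.6 kb from Ahr, the aryl hydrocarbon receptor (place 4741), an intronic site of Prkch, a protein kinase C (place 4551), and a site 6.84 kb from Sema4b (place 3078, ISRE or EICE). The sites nearest to A330017A19Rik, Gm5420 and Myo3a stood at 2922, 4501 and 4657. Of the 10, 4 held an AP-1 motif, 2 ISRE or EICE without AP-1 and 4 none of these.

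The 3059 sites were spread over 2503 nearest genes, of which 2068 had 1 site. St3gal1, a sialyltransferase, had the most with 6, of which 4 were kept, but they lay 60.3 to 522 kb from its TSS. Ezr (ezrin, a link between membrane and actin) had 5 sites and no triple site among 10 IRF4 peaks, with 3 sites kept. The missing ones held AP-1 motifs, as did the kept site at place 3787. Lrmp, which had 4 of 5 sites kept, and Lrrc8d, a volume-regulated anion channel subunit with 3 of 4 kept, each had a site at a promoter. Pard3 and Cdc73 had 5 sites each with 4 kept, 3110018I06Rik 5 with all kept, and Bre, Map3k5 and the antiproliferative gene Btg1 4 each with 3 kept. Many of these were also far from the TSS. The distances were 140 to 768 kb for Cdc73, 52.1 to 617 kb for 3110018I06Rik and 9.88 to 299.9 kb for Pard3.

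Genes of 8 lists chosen for their roles in Treg cells were then looked up within 100 kb of a TSS. Of the 160 genes annotated, 83 had a site (51.9%), compared with 33.0% of all 22238 protein-coding genes. The 114 sites at them comprised 99 kept and 15 missing, where 74.2% of all the sites were kept. As a share of the IRF4 peaks near the genes, the sites were not set apart. They made up 6.62% (effector Treg genes) to 11.5% (AP-1 and BACH family) of those peaks by list, beside 9.84% of all IRF4 peaks. These are counts without a test, and a site can lie within 100 kb of several genes.

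The 14 effector Treg genes that the study discusses had 136 IRF4 peaks within 100 kb, of which 69 were triple sites (50.7%) and 9 were sites without JunB (6.62%), 8 of them kept. Over the whole list these made up 28.8% and 9.84%, and 74.2% of all the sites without JunB were kept. Icos, Ctla4, Fgl2, Maf, Klrg1, Ccr2, Ccr9 and Ccr10 had none. Prdm1, which encodes the effector regulator Blimp-1, had 1 kept site (chr10:44259083-44259695, 11.1 kb from the TSS, place 7663 of the Junb-sufficient and 12218 of the Junb-deficient list) and 1 missing site in an intron (chr10:44201649-44202261, place 11604), both with AP-1. Gata3, a regulator of tissue Treg cells, had 1 kept site 81.1 kb away (place 15266, and 21418 in Junb-deficient cells). The sequences within 100 bp of these centres are shown because the same motif occurs at a kept and a missing site of 1 gene, with AP-1 in capitals. Its position differs, near the edge of the window at the kept Prdm1 site and near the IRF4 centre at the missing one. The sequences are from the mm9 plus strand of chr10:44259289-44259489, chr10:44201855-44202055 and chr2:9714089-9714289.
Prdm1 site, kept: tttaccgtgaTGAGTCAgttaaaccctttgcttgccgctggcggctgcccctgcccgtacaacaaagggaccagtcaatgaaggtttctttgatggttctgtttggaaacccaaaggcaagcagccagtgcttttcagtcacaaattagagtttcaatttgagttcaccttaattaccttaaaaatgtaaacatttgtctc
Prdm1 site, missing: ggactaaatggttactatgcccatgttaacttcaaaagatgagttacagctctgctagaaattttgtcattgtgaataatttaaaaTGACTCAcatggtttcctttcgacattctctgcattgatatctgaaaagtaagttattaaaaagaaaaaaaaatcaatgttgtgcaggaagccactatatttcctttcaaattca
Gata3 site, kept: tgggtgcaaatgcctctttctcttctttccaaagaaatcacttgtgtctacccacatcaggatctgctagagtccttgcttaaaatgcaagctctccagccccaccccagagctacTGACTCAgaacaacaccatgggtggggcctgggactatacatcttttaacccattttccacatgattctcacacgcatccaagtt

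The remaining effector Treg sites were 2 kept at Nt5e (CD73), both with ISRE or EICE, 2 kept at Il1rl1 (the IL-33 receptor), 1 kept at Tigit and 1 kept at Gzmb (granzyme B). The Gzmb site fell from 25.03% of the Junb-sufficient list to 75.2% of the Junb-deficient list, and the nearer Nt5e site stood at 50.3% and 34.2%. Both directions thus occurred among these 8 kept sites.

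All 17 sites at genes of the AP-1 and BACH family were kept, as were all 6 at IRF genes, where 74.2% of all the sites were kept. Of the triple sites at the same genes 40 of 43 and 17 of 22 were kept. Batf had 3, Bach2, a repressor that competes at AP-1 motifs, 3, Atf3 2 and Mafg 2, with 1 each at Batf2, Batf3, Jun, Junb, Fos, Fosl1, Fosl2 and Bach1, 1 site being near both Batf3 and Atf3. The Junb site (chr8:87509525-87510137, 7.21 kb from the TSS) stood at 9.74% of the Junb-sufficient and 7.69% of the Junb-deficient list, with a JunB centre 595 bp away. The leading Batf site, 23.5 kb from the TSS, stood at 20.4% and 9.65%. At IRF genes the second Irf4 site, 16.4 kb from the TSS, stood at 49.6% and 23.5%, and the Irf2 site at 21.6% and 4.57%. The sequences of the Batf and second Irf4 sites (mm9, plus strand, chr12:87004049-87004249 and chr13:30824624-30824824) hold an ISRE or EICE match, in capitals, and no AP-1 motif.
Batf site, kept: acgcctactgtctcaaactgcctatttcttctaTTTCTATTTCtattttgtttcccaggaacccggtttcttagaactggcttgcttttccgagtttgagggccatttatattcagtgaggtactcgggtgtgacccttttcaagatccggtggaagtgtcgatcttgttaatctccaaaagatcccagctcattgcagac
Irf4 site, kept: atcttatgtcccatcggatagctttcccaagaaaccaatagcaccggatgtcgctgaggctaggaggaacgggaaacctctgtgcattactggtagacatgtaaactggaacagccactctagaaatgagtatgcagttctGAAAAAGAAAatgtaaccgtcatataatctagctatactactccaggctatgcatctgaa

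Treg transcription factor genes had 24 sites, 22 kept, where 74.2% of all the sites were kept. Of the triple sites at these genes 87 of 104 were kept. Foxp3, the defining factor of Treg cells, had 1 site in an intron 2.19 kb from the TSS, at 13.2% of the Junb-sufficient and 7.97% of the Junb-deficient list. Ikzf4 had 4 sites with 3 kept, and Relb, an NF-kappaB subunit, 3 with all kept, 1 of them 14 bp from its TSS. Ets1, Id2 and Id3 had 2 kept sites each. The Satb1 site stood high in both lists (8.46% and 3.32%), and the Foxo1 site was missing.

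Among cytokine and signalling genes 16 of 20 sites were kept, among costimulatory and inhibitory receptors 10 of 12, and among chemokine receptors and homing genes 13 of 16, where 74.2% of all the sites were kept. The triple sites of these lists were kept at 73 of 85, 44 of 49 and 63 of 68. Socs1, an inhibitor of cytokine signalling, had a promoter site 94 bp from the TSS with an ISRE (place 1937, and 953 in Junb-deficient cells), a second kept site and 1 missing. Il2rb, the IL-2 receptor beta chain, had 1 kept and 1 missing, Il18r1 shared both kept Il1rl1 sites, and Stat4 had 2 kept. Tnfrsf1b, Tnfrsf8, Lag3 and Cd83 had 2 kept sites each and Btla 1 kept and 1 missing. Ccr8, a receptor of tissue Treg cells, had 1 kept and 2 missing sites, Cxcr5 3 kept, and Ccr4 and Ccr7 2 kept each.

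Interferon-stimulated genes had 13 sites, 10 kept (76.9%), at 12 of 33 annotated genes (36.4%), both near the 74.2% of all the sites kept and the 33.0% of protein-coding genes with a site. Of their triple sites 38 of 39 were kept. The Isg15 promoter site, 49 bp from the TSS and with an ISRE, moved from 26.9% of the Junb-sufficient to 6.82% of the Junb-deficient list. The B2m site stood at 7.27% and 5.39%. Gbp2 had 2 kept and 1 missing, Dhx58 2 kept, Usp18 1 kept and 1 missing, and the Oasl1 site was missing. Peaks at defining genes of other cell types do not measure their presence, since a peak is not a level of expression. Within 100 kb, Cd79a of B cells had 3 of the sites, Itgam of myeloid cells 2 and Lyz2 1, Ms4a1, Csf1r, Cd8a and Cd8b1 none, and of the Treg and T cell genes Cd4 had 2, Foxp3 and Cd3e 1 each, and Il2ra, Ikzf2, Ctla4 and Tnfrsf18 none. Whether other cells contributed to these lists was not tested.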

How the data were processed

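ChIP-seq peak lists of 4 libraries were used. Per the labels and the study's methods, reads were mapped by the authors with Bowtie2 to mm9, and they called peaks with HOMER (version 4.8 in the submitters' processing notes) in each library by itself, at a false discovery rate of 0.001 and 4-fold over the surrounding 10 kb. The deposited lists give positions and a score, which is 1 in every row and was not used. The list order, which the headers do not name, was taken as place. Peaks sharing at least 1 bp were counted as shared. Sequence was read from the genome of that assembly (NCBIM37), with TSSs, exons and genes by GENCODE. Motifs were matched as fixed letters within 100 bp of the IRF4 peak centre.

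Shares carry exact binomial (Clopper-Pearson) 95% intervals, differences Newcombe intervals, and groups were compared by Mantel-Haenszel odds ratios over 20 strata of the Junb-sufficient IRF4 list, called different where the interval left out 1. The intervals were not adjusted for the 150 comparisons made. With 1 library per condition no p-value was computed. The sites and gene lists were chosen with earlier results of these data known. Genes were named by fixed rules: all genes of the lists were counted, and the 10 genes nearest to most sites and those nearest to the 10 highest kept and 10 highest missing sites were named. The sequence set and the rule for it follow the highest places per motif class, and the Prdm1, Gata3, Batf and Irf4 sequences were added after their values were seen. A comparison of repeat-masked sequence was not run, because the genome used marks no repeats. Computations used Python 3.11.15, NumPy 2.4.6 and SciPy 1.17.1, were tested on simulated data, and figures were drawn with matplotlib 3.10.9. Not reported here are 1 marker gene and the highest missing site with none of the motifs, and RNA-seq was not analysed here.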

Additional observations from a re-analysis of the deposited data

How the results depend on the processing

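Peak lists without tag counts, replicates or a control library limit these results to listed or not listed. No paired analysis was possible because each condition had 1 library. There were 132 alternative values, 36 of them chosen after seeing the data. Of 95 odds ratios or their ratios, 80 kept direction and side of the threshold, and 21 of 33 shares moved by less than their interval. All 28 alternatives kept direction and call for AP-1, ISRE or EICE and promoters in kept against missing sites. The promoter odds ratio nevertheless ranged from 1.52 to 3.26. The cause of the other values was not tested.

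Taking only the first 50% of each list left 1064 sites, as its construction implies, with 8.27% at promoters, AP-1 in 34.2%, AICE in 4.70% and odds ratios against triple sites of 0.811 for AICE and 1.05 for ISRE or EICE, neither past the threshold. Sharing by centres within 100 bp gave 65.9% kept (odds ratio against triple sites 1.06, no longer past the threshold), 10.02% at promoters and AP-1 in 34.9%. Without strata the odds ratio for being kept reversed to 0.563, and that for ISRE or EICE fell to 1.09. With strata of the BATF list the odds ratios were 1.12 for being kept, 0.845 for AICE and 1.10 for ISRE or EICE, and with BATF and IRF4 exchanged 0.871 for AICE and 1.08 for ISRE or EICE, none past the threshold. Outside promoters 72.0% were kept. Promoters made up 18.5% at a limit of 2.5 kb and 14.4% with the TSSs of all annotated genes. The wider window gave AP-1 in 37.7%, ISRE or EICE in 17.8% and an odds ratio of 1.12 for the latter, and C or G in the middle of the AP-1 motif gave 25.2%. The ratio of promoter odds ratios, sites over triple sites, lost its call with centres within 100 bp (1.299), in the first 50% of each list (1.961), with BATF and IRF4 exchanged (1.46) and with promoters to 2.5 kb (1.33).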
